A study of Mus musculus with 4 samples.

Results

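Protocadherins are cell-surface adhesion proteins of the cadherin superfamily, and 35 of the 20252 genes measured in this set of mouse embryonic retina arrays are protocadherin genes. They were taken as every gene whose symbol begins with Pcdh in the platform annotation, using transcript clusters (the array's gene-level probe sets) with exactly 1 symbol, and the transcript cluster of highest mean over the 4 arrays where a gene had several. Of the 35, 24 belong to the protocadherin gene clusters (1 alpha, 22 beta and 1 gamma gene) and 11 are non-clustered. The GRCm38.p6 RefSeq gene table lists 14 protein-coding alpha, 22 beta, 21 gamma and 12 non-clustered genes, so the beta cluster is the one seen whole, and the alpha and gamma clusters are each seen through a single gene.

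The arrays measured total RNA of neuroretina, the neural layer of the eye, dissected at embryonic day 13.5 from embryos of CD-1 mice. The 2 control arrays carried loxP-flanked Lhx2 alleles (Lhx2 lox/lox), and the 2 arrays labelled Chx10-Cre;Lhx2 lox/lox carried the same alleles together with Chx10-Cre, in which the promoter of Chx10, a homeobox gene of retinal progenitors, drives Cre recombinase. The latter pair is called the Chx10-Cre arrays here. All 4 samples share the loxP-flanked alleles and only the Chx10-Cre pair has the transgene, so loss of Lhx2 and any effect of Cre itself cannot be told apart. The series title asks which genes Lhx2, a LIM-homeodomain transcription factor, regulates in early retinal progenitors.

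The clustered protocadherins lie in tandem arrays of promoters, of which each neuron uses a small and partly random choice, so that neighbouring cells display different surface combinations. Their proteins bind like with like, and in the retina the gamma cluster is known for self-avoidance of starburst amacrine cell dendrites and for survival of neurons. Alpha and gamma transcripts join a variable exon to constant exons shared by their cluster, whereas beta genes have no shared constant exons. The non-clustered genes are scattered in the genome, and their proteins, many of the delta groups, act in cell sorting, axon growth and synapse formation.

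Levels are given here as log2 signal above the median of all transcript clusters on the same array, so that 0 is the median and each unit is a 2-fold step. On the deposited log2 scale the array medians were 2.97 and 2.85 for control and Chx10-Cre replicate 1, and 3.53 and 3.46 for control and Chx10-Cre replicate 2. The 75th percentile of all transcript clusters lay 0.99 to 1.13 above the median, and signals under it are called dim because they are not told from background. Lhx2 had levels of 3.39 and 2.96 on the control arrays and 3.53 and 3.04 on the Chx10-Cre arrays. The sources used here do not say which exons its probes cover, so this signal does not check the genotype labels. Of 12 genes that define the embryonic retina, 10 were measured, and their median level was 5.21 and 5.06 on the control arrays against 4.26 and 4.04 on the Chx10-Cre arrays. Both Chx10-Cre arrays lay below both control arrays in 7 of the 10 (15.8% of all genes) and above in 1 (23.3%). The 2 of smallest p were Six6 and Rax, with log2 differences, Chx10-Cre minus control, of -3.59 and -2.11 (limma adjusted p = 0.0735 and 0.1125). Nothing in the labels says whether the 2 arrays of a group came from separate embryos, so the p-values reflect the spread of the arrays alone, which may be technical. No label ties a replicate number to a litter or day, so same-numbered arrays are set side by side for description and are not matched.

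Most protocadherin genes had higher signals on the Chx10-Cre arrays, but no single gene passed the test across all genes. The median log2 difference, Chx10-Cre minus control, was 1.13 over the 35 genes and 0.03 over all 20252 genes, and 33 of the 35 differences lay above 0 against 57.2% of all genes. In 30 of the 35 both Chx10-Cre arrays lay above both control arrays, against 23.3% of all genes, and in 2 (Pcdhb1 and Pcdhga10) both lay below, against 15.8%. At least a 1.5-fold higher signal within the replicate 1 arrays and again within the replicate 2 arrays was seen in 22 of the 35, against 3.36% of all genes, and at least a 1.5-fold lower signal in 0, against 2.49%.

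limma called 0 of 20252 genes at an adjusted p of 0.05 (0% in either direction) on these median-centred values. Unadjusted p fell under 0.05 for 29 of the 35 protocadherin genes, 28 higher and 1 lower, against 5.9% of all genes higher and 3.77% lower. The adjusted p of the 35 genes ranged from 0.112 to 0.993. With 2 arrays a group, the smallest two-sided p of an exact permutation test of any single gene is 0.333, so only the fit across genes could make a call. On the deposited values without centring, limma called 8 protocadherin genes higher at an adjusted p of 0.05, where 1.27% of all genes were called higher. These were Pcdh10, Pcdh18, Pcdhb2, Pcdhb6, Pcdhb16, Pcdhb18, Pcdhb19 and Pcdhb20. In earlier simulations limma did not hold its error rate on the deposited scale, so the 8 calls are not relied on here. On the same deposited values both Chx10-Cre arrays lay above both control arrays for 26 of the 35, against 9.63% of all genes. On the centred values without Chx10-Cre replicate 1, 7 protocadherin genes were called higher (1.04% of all genes), and without Chx10-Cre replicate 2, 6 were (3.45% of all genes). In both of these fits the Chx10-Cre arm is a single array assumed to vary like the controls, the 2 control arrays alone give each gene's residual spread, and the calls lend the other fits no support.

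**Figure D1:**
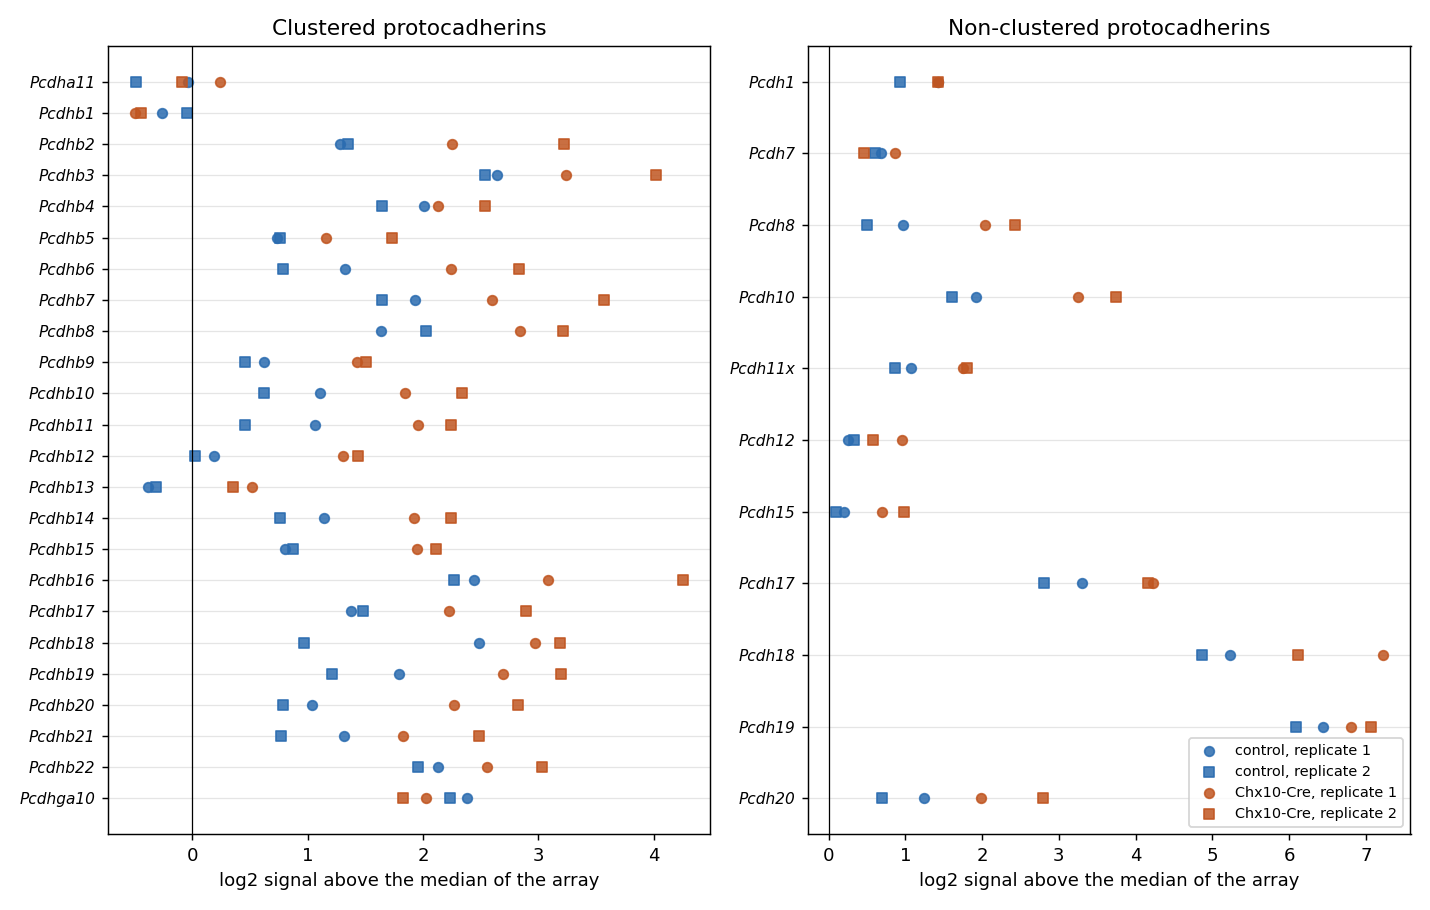
Level of each protocadherin gene on each array, as log2 signal above the median of the array (x axis), for clustered genes (left) and non-clustered genes (right). Circles are replicate 1 and squares replicate 2; the orange points of the Chx10-Cre lie to the right of the blue control points in 30 of 35 genes, and the control replicate 1 point of Pcdh1 is hidden under Chx10-Cre points.

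Signals of the beta cluster were higher on the Chx10-Cre arrays nearly throughout. Of its 22 genes, 21 had both Chx10-Cre arrays above both control arrays, against 23.3% of all genes, and the exception was Pcdhb1, the first gene of the row. Over the 22 genes the median level was 1.30 and 0.83 on the control arrays against 2.18 and 2.68 on the Chx10-Cre arrays. Their median log2 difference was 1.19, made up of 0.79 in the replicate 1 pair of arrays and 1.48 in the replicate 2 pair. Among the 21 genes, log2 differences ran from 0.50 to 1.64. Unadjusted p was under 0.05 in 20 of them, against 5.9% of all genes with a higher signal, and adjusted p ranged from 0.112 to 0.655. Pcdhb11 and Pcdhb18 had several transcript clusters. The other cluster of Pcdhb11 lay below the median on every array, with overlapping groups and a difference of -0.08. Its number (6837403) is far from those of the beta genes (6860160 for Pcdhb1 to 6860211 for Pcdhb22). Whether it lies at the Pcdhb11 locus was not checked. With the mean over its clusters the difference of Pcdhb11 was 0.63, against 1.34 as reported. The other clusters of Pcdhb18 differed by 1.35 and 1.10.

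The largest beta difference was that of Pcdhb20 (transcript cluster 6860207), with levels of 1.04 and 0.79 on the control arrays and 2.27 and 2.82 on the Chx10-Cre arrays. Both of its control signals were dim, so the lower value behind its fold is not told from background. Both Chx10-Cre values lay more than a log2 unit above both control values, a 3.11-fold higher signal with a log2 difference of 1.64 (95% interval 0.95 to 2.32, limma adjusted p = 0.163). Pcdhb6 followed, with 1.33 and 0.79 in control and 2.24 and 2.83 in Chx10-Cre arrays, a 2.79-fold higher signal (limma adjusted p = 0.252). The groups did not overlap for either gene, and in both the difference was larger within the replicate 2 arrays than within the replicate 1 arrays.

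Pcdhb3 had levels of 2.64 and 2.54 on the control arrays and 3.24 and 4.02 on the Chx10-Cre arrays, 2.05-fold higher on average (limma adjusted p = 0.413). Pcdhb16 had 2.44 and 2.27 against 3.08 and 4.25, 2.48-fold higher (limma adjusted p = 0.431). In these genes, which had the highest mean signals of the cluster, the control arrays lay close together and the Chx10-Cre arrays lay about a log2 unit apart. Pcdhb12, picked after its values were seen because its adjusted p was the lowest of all protocadherins, had 0.19 and 0.03 against 1.31 and 1.43 (difference 1.26, 95% interval 0.86 to 1.66, limma adjusted p = 0.112). Its control signals were dim, as were those of 8 of the 22 beta genes in both control arrays, so the lower value behind such folds is not told from background. In 6 of these 8 at least 1 Chx10-Cre signal was above the 75th percentile.

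The smallest differences of the cluster were those of Pcdhb1 and Pcdhb4. Pcdhb1 had dim levels in every array, -0.26 and -0.04 in control and -0.49 and -0.44 in Chx10-Cre arrays, and its Chx10-Cre values lay below the control values (difference -0.31, 95% interval -0.57 to -0.06, limma adjusted p = 0.412). Pcdhb4 had 2.01 and 1.65 in control against 2.13 and 2.53 in Chx10-Cre arrays (difference 0.50, limma adjusted p = 0.655). Its control replicate 1 and Chx10-Cre replicate 1 arrays were close, with a difference of 0.12, whereas the replicate 2 arrays differed by 0.89.

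Differences in the beta cluster were unequal between the replicate numbers. In 19 of the 22 genes the log2 difference was higher within the replicate 2 arrays than within the replicate 1 arrays, against 44.5% of all genes. Beside Pcdhb1, Pcdhb8 (1.20 and 1.18) and Pcdhb13 (0.90 and 0.67) did not follow this order. The beta genes are close paralogues, and probes of one may also bind transcripts of another, so the 22 signals are not 22 independent measurements. Probe sequences were not used here, and the share of signal between paralogues was not tested.

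The alpha and gamma genes gave values outside the range of the 21 beta genes. Pcdha11, the only alpha gene measured, was dim in every array, with levels of -0.04 and -0.48 in control and 0.24 and -0.09 in Chx10-Cre arrays. Its groups overlapped (difference 0.33, 95% interval -0.16 to 0.83, limma adjusted p = 0.702). Pcdhga10, the only gamma gene measured, had 2.38 and 2.23 in control and 2.03 and 1.82 in Chx10-Cre arrays. Its Chx10-Cre values lay below the control values, with a difference of -0.38 (95% interval -0.93 to 0.16, limma adjusted p = 0.685), -0.36 within the replicate 1 and -0.41 within the replicate 2 arrays. The number of this transcript cluster (6864752) falls between those of the neighbouring genes Taf7 (6864747) and Diaph1 (6864760). Beta genes are numbered apart from it, from 6860160 for Pcdhb1 to 6860211 for Pcdhb22. Which strand the Pcdhga10 cluster reads was not checked, so its signal may not be that of the gamma transcript. The C-type members of the alpha and gamma clusters, whose use is more even from neuron to neuron, were not analysed here.

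Genes that lie next to the clusters gave values nearer to 0. In the GRCm38.p6 gene order the mitochondrial transporter gene Slc25a2 and Taf7, which encodes a subunit of the general transcription factor TFIID, follow Pcdhb22 and precede the gamma cluster. Slc25a2, dim in every array, had levels of 0.81 and 0.33 in control and 0.56 and 0.51 in Chx10-Cre arrays, and its log2 difference was -0.03. Taf7 had 3.75 and 4.003 against 3.49 and 4.19, and its difference was -0.03 as well. For both genes the groups overlapped, and the difference was below 0 within the replicate 1 arrays and above 0 within the replicate 2 arrays.

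Together with the 5 nearest measured protein-coding genes on each side, the 12 neighbours had log2 differences from -0.26 to 0.98 with a median of 0.16. These neighbours were chosen after the beta cluster's values were seen. The highest neighbour value belonged to Arap3, with 1.41 and 1.09 in control against 2.96 and 1.49 in Chx10-Cre arrays. Of the 12, Arap3 and Rell2 had both Chx10-Cre arrays above both control arrays (23.3% of all genes), and Wdr55 had both below (15.8% of all genes).

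**Figure D2:**
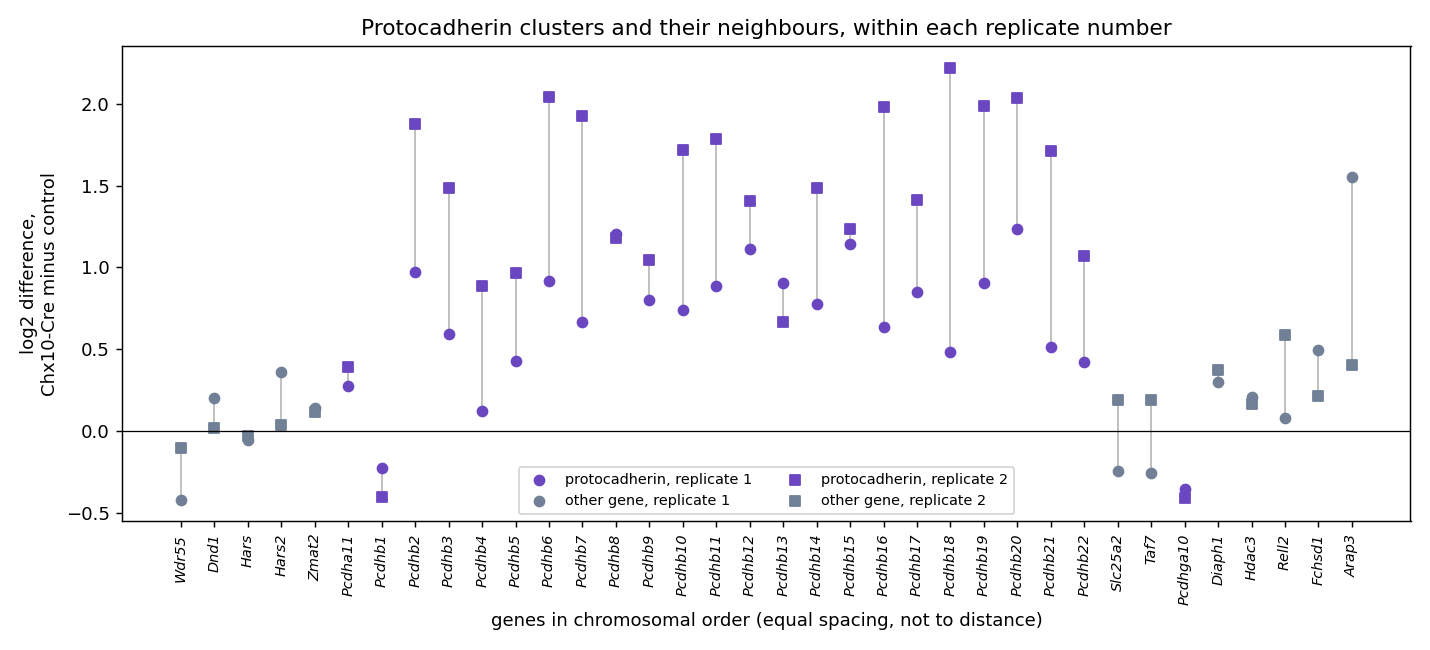
Log2 difference, Chx10-Cre minus control, within the replicate 1 arrays (circles) and within the replicate 2 arrays (squares) for measured genes of the protocadherin clusters (purple) and 12 neighbouring genes (grey) in chromosomal order at equal spacing. From Pcdhb2 to Pcdhb22 every point lies above 0, while Pcdhb1, Slc25a2, Taf7 and Pcdhga10 lie near or below 0.

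The 11 non-clustered protocadherins had a median log2 difference of 0.81, or 0.71 within the replicate 1 and 0.97 within the replicate 2 arrays. In 9 of the 11 both Chx10-Cre arrays lay above both control arrays, against 23.3% of all genes, the exceptions being Pcdh1 and Pcdh7. An unadjusted p under 0.05 with a higher signal was found in 8 of the 11, against 5.9% of all genes. The delta-2 genes had the largest median, 1.502 over 5 genes. The delta-1 genes had a median of 0.25 over 3 genes, and the 3 remaining genes (Pcdh12, Pcdh15 and Pcdh20) of 0.69. The difference between these subgroups was not tested.

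The stretches of 250 bases before the annotated start of 5 non-clustered genes are shown with every CG dinucleotide in capitals, to set the 4 genes of largest difference (Pcdh10, Pcdh18, Pcdh8 and Pcdh20) beside Pcdh7, whose difference was nearest to 0. The sequences are from RefSeq on GRCm38.p6, 5′ to 3′ on the strand of the gene: Pcdh10 at chr3:45378148-45378397, plus strand, Pcdh8 at chr14:79771313-79771562, minus strand, Pcdh18 at chr3:49757317-49757566, minus strand, Pcdh20 at chr14:88471397-88471646, minus strand, and Pcdh7 at chr5:57717831-57718080, plus strand.
Pcdh10: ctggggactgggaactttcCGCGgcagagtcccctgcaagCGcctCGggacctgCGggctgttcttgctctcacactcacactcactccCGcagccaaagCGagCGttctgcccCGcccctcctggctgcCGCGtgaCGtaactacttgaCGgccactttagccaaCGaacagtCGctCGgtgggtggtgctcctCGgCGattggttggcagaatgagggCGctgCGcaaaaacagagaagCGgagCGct
Pcdh8: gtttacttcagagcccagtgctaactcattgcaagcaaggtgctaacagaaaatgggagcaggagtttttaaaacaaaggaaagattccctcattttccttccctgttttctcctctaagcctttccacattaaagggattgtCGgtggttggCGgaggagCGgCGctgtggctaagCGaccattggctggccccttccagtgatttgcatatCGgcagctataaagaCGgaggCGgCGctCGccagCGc
Pcdh18: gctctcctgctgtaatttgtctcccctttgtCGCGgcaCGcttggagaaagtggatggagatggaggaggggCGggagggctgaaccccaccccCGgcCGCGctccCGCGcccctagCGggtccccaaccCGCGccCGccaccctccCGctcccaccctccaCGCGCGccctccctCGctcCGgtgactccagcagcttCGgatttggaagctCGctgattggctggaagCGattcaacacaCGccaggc
Pcdh20: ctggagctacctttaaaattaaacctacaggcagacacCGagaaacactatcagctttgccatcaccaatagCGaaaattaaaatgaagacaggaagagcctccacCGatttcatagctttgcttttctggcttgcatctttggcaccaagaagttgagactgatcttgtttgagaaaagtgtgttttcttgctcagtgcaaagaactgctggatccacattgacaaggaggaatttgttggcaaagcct
Pcdh7: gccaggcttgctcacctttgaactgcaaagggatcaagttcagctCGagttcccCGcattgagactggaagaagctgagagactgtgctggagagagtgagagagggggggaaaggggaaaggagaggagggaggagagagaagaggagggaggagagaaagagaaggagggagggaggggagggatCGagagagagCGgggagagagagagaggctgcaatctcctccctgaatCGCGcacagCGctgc

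The 4 genes of largest difference did not share one promoter composition. Pcdh10 and Pcdh18 had 22 and 23 CG dinucleotides, more than 85.2% and 86.7% of the 32851 promoter stretches of the same length. Pcdh8 had 11 and Pcdh20 had 3, fewer than the 7 of Pcdh7, and the median over all promoters was 6. The motif TAATTA, a homeodomain core that reads the same on both strands, was searched for because LIM-homeodomain proteins are known to bind it. It was in 0 of the 8 protocadherin promoters in the table and in 4.84% of all promoters. A match or its absence in this window says nothing on binding, and the promoters of the clustered genes, Pcdh1, Pcdh12 and Pcdh11x were not used here.

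Among the delta-2 genes, Pcdh10, which encodes a protein needed for growth of striatal and thalamocortical axons, had levels of 1.92 and 1.60 on the control arrays and 3.25 and 3.74 on the Chx10-Cre arrays. The groups were more than a log2 unit apart, and the 3.33-fold higher signal was the largest of any protocadherin (log2 difference 1.74, 95% interval 1.03 to 2.45, limma adjusted p = 0.158). Pcdh8, an activity-regulated synaptic protocadherin also used in early mesoderm, had dim levels of 0.96 and 0.50 in control against 2.04 and 2.43 in Chx10-Cre arrays. It differed by 1.502 (95% interval 0.83 to 2.17, limma adjusted p = 0.178). Both genes differed more within the replicate 2 arrays (2.14 for Pcdh10 and 1.93 for Pcdh8) than within the replicate 1 arrays (1.33 and 1.08).

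Pcdh18 had levels of 5.22 and 4.86 in control and 7.22 and 6.12 in Chx10-Cre arrays, 3.09-fold higher (difference 1.63, 95% interval 0.52 to 2.73, limma adjusted p = 0.335). It went against the order of the other large differences, with 2.00 for the replicate 1 pair and 1.25 for the replicate 2 pair. Periocular mesenchyme markers were ordered the same way, with median differences of 3.08 and 1.01 over 13 measured genes, as were vascular markers with 1.53 and 0.58 over 10 genes. The part of such cells in the Pcdh18 signal was not tested.

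Pcdh17, a synaptic protein of corticobasal circuits, had 3.30 and 2.803 in control against 4.22 and 4.16 in Chx10-Cre arrays, 2.21-fold higher (limma adjusted p = 0.297). The Chx10-Cre arrays nearly coincided and lay above both control arrays, and its other transcript clusters differed by 0.77 and 1.03. Pcdh19, an X-linked gene whose loss in some cells causes epilepsy in humans, had 6.45 and 6.09 against 6.81 and 7.06 (difference 0.67, 95% interval -0.0027 to 1.34, limma adjusted p = 0.518). Its other transcript clusters differed by 0.50 and 0.40, and one of them was lower within the replicate 1 arrays (-0.32) and higher within the replicate 2 arrays (1.32).

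Of the delta-1 genes, Pcdh11x, X-linked, had levels of 1.07 and 0.87 in control and 1.75 and 1.81 in Chx10-Cre arrays, a difference of 0.81 (limma adjusted p = 0.290). Its control signals were dim. Pcdh1, an epithelial and endothelial adhesion protein, had levels of 1.42 and 0.93 in control against 1.42 and 1.43, with a difference of 0.25 (95% interval -0.35 to 0.85, limma adjusted p = 0.852). In its other transcript cluster the groups did not overlap, with 1.18 and 0.67 in control against 1.22 and 1.23 (difference 0.30). Pcdh7, known in the frog as NF-protocadherin of retinal axons, was dim throughout, with 0.68 and 0.61 in control against 0.86 and 0.46. Its Chx10-Cre arrays lay on either side of the controls, and the difference was 0.02 (95% interval -0.46 to 0.50, limma adjusted p = 0.993).

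The 3 genes outside the delta groups all had Chx10-Cre arrays above the controls. Pcdh20 had 1.24 and 0.69 in control and 1.98 and 2.79 in Chx10-Cre arrays, 2.67-fold higher (limma adjusted p = 0.322). Pcdh15, the Usher syndrome gene of hair cell tip links and photoreceptors, was dim in every array, with 0.20 and 0.09 against 0.69 and 0.98 (limma adjusted p = 0.285). Pcdh12, an endothelial protocadherin, was dim as well, with 0.25 and 0.32 against 0.95 and 0.57 (limma adjusted p = 0.488). Like the vascular markers and unlike most protocadherins, Pcdh12 differed more within the replicate 1 arrays (0.71) than within the replicate 2 arrays (0.25).

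**Figure D3:**
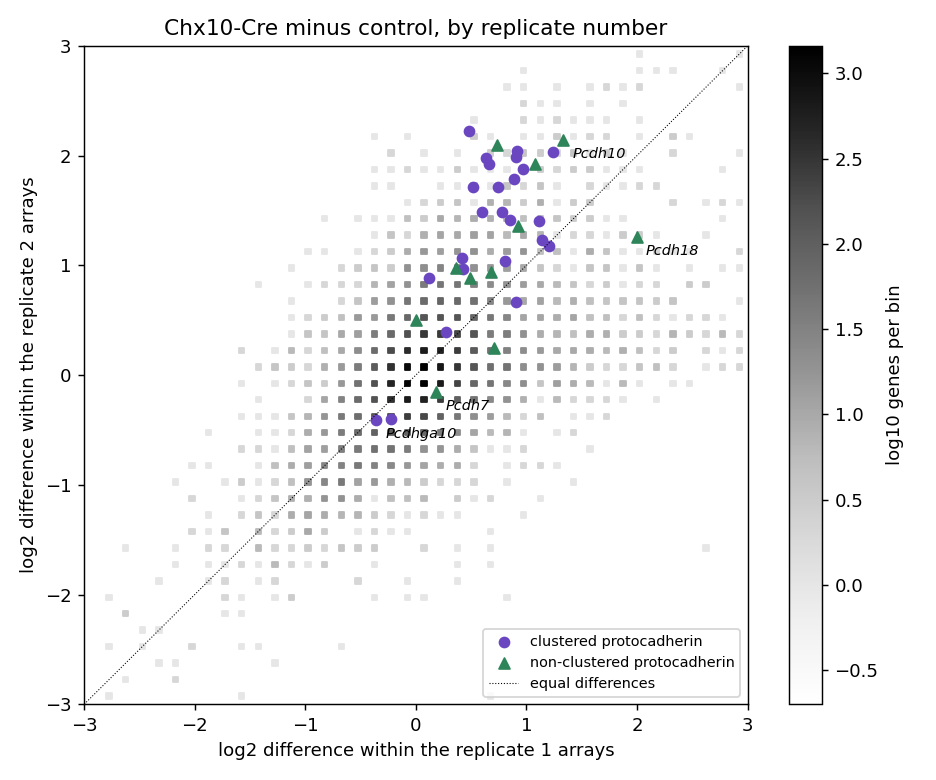
Log2 difference within the replicate 1 arrays (x axis) against that within the replicate 2 arrays (y axis) for all genes (grey squares, darker with more genes per bin), clustered protocadherins (purple circles) and non-clustered protocadherins (green triangles), within 3 log2 units of 0. Most protocadherins lie above the dotted line of equal differences, while Pcdh18 lies below it at 2.00 and 1.25.

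Markers of other cell types also differed between the groups, and the Chx10-Cre arrays differed from each other in them. Forebrain and hypothalamus markers (10 of 12 measured) had median differences of 3.08 for replicate 1 and 4.26 for replicate 2, and Sim1 and Otp, hypothalamic transcription factors, had the smallest p of the list (differences of 5.18 and 3.85, limma adjusted p = 0.0735 for both). The summed linear level of these 10 genes, in multiples of the array median, was 47.2 to 50.1 in control and 149.2 to 262.9 in Chx10-Cre arrays, and 9 of the 10 were dim in both control arrays. The remaining gene, Fezf2, had levels of 5.33 and 5.275 in control, which made up most of the control sums, and a difference of 0.38 (limma adjusted p = 0.790). As in the beta cluster, the larger median difference of the list was in replicate 2.

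Periocular mesenchyme markers (13 of 14 measured) summed to 26.4 to 30.8 in control against 406.8 and 56.3 in Chx10-Cre replicates 1 and 2. Over vascular markers (10 of 10) the sums were 63.4 to 79.8 against 96.5 and 52.8. Kdr, the vascular marker of highest signal, made up much of these sums and was lower on both Chx10-Cre arrays (difference -0.70). In 9 of the 10 vascular markers both Chx10-Cre arrays lay above both control arrays, against 23.3% of all genes. Sums over pigment epithelium markers (10 of 10) were 64.5 to 69.7 against 189.6 and 77.4, and over muscle markers (7 of 8) 12.4 to 13.2 against 60.9 and 14.1. The median difference was 2.12 and 0.40 within the replicate 1 and replicate 2 arrays for pigment epithelium markers and 1.46 and 0.02 for muscle markers. These lists had their larger difference in replicate 1, opposite in order to 19 of the 22 beta genes. Macrophage and microglia markers (8 of 8) summed to 15.9 to 16.7 against 24.4 to 27.1, with median differences of 0.56 and 0.70. The part of any of these cell types in the protocadherin values was not tested. In RNA of whole tissue, a change in the number of cells of a type and a change in RNA per cell cannot be told apart.

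Other groups of the cadherin superfamily had medians nearer to that of all genes. Of 20 classical and related cadherins, 0 passed the test (limma adjusted p from 0.153 to 0.998), 3 had an unadjusted p under 0.05 with a higher and 2 with a lower signal (5.9% and 3.77% of all genes), and the median difference was 0.17. Cdh10, a neuronal type II cadherin, had dim levels of 0.46 and 0.25 in control and levels of 1.48 and 1.44 in Chx10-Cre arrays (difference 1.10, limma adjusted p = 0.153). Cdh8, also of type II, had 1.76 and 1.69 against 2.83 and 3.34 (difference 1.36, limma adjusted p = 0.215). Both had groups that did not overlap, as 9 of the 20 did with Chx10-Cre higher (23.3% of all genes) and 4 with Chx10-Cre lower (15.8% of all genes).

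The planar polarity cadherins of the Fat, Dachsous and Celsr families (7 of 9 measured) had a median difference of 0.14, and 0 had an unadjusted p under 0.05. Dchs1, a ligand of Fat4, had 4.18 and 3.18 against 5.10 and 4.25 (limma adjusted p = 0.616), and Celsr2 had 5.16 and 3.94 against 5.42 and 4.90 (limma adjusted p = 0.803). The control replicates of both were about a log2 unit apart, which is as large as their differences. Catenins, which link classical cadherins to actin and are not bound by protocadherins in the same way, had a median of 0.17 over 7 genes. The 2 of smallest p, Ctnnd1 and Ctnnb1, had differences of 0.42 and 0.44.

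Factors known to act in promoter choice of the clustered genes had a median of -0.08 over 12 of 14 genes, and 0 passed the test. Dnmt3b, a DNA methyltransferase that methylates protocadherin promoters in the early embryo, had 4.28 and 3.74 in control and 3.08 and 2.63 in Chx10-Cre arrays. Both Chx10-Cre values lay below both control values (difference -1.15, 95% interval -1.95 to -0.36, limma adjusted p = 0.340), with -1.20 and -1.11 by replicate number. Tet2, which oxidises methylated cytosine, had 2.90 and 2.59 against 3.48 and 3.32 (difference 0.65, limma adjusted p = 0.490). The insulator protein gene Ctcf, added here after its value was seen, had a difference of -0.23 with overlapping groups.

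The list of protocadherin signalling partners holds the WAVE actin regulators bound by delta-2 proteins and the kinases Ptk2 and Ptk2b inhibited by clustered proteins. Ptk2 was not measured, and the median was 0.14 over 14 of 16 genes. None of the 14 had an unadjusted p under 0.05, and limma adjusted p ranged from 0.690 to 0.996. Ptk2b and Abi1, the 2 of smallest p, had differences of 0.20 and 0.46.

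**Figure D4:**
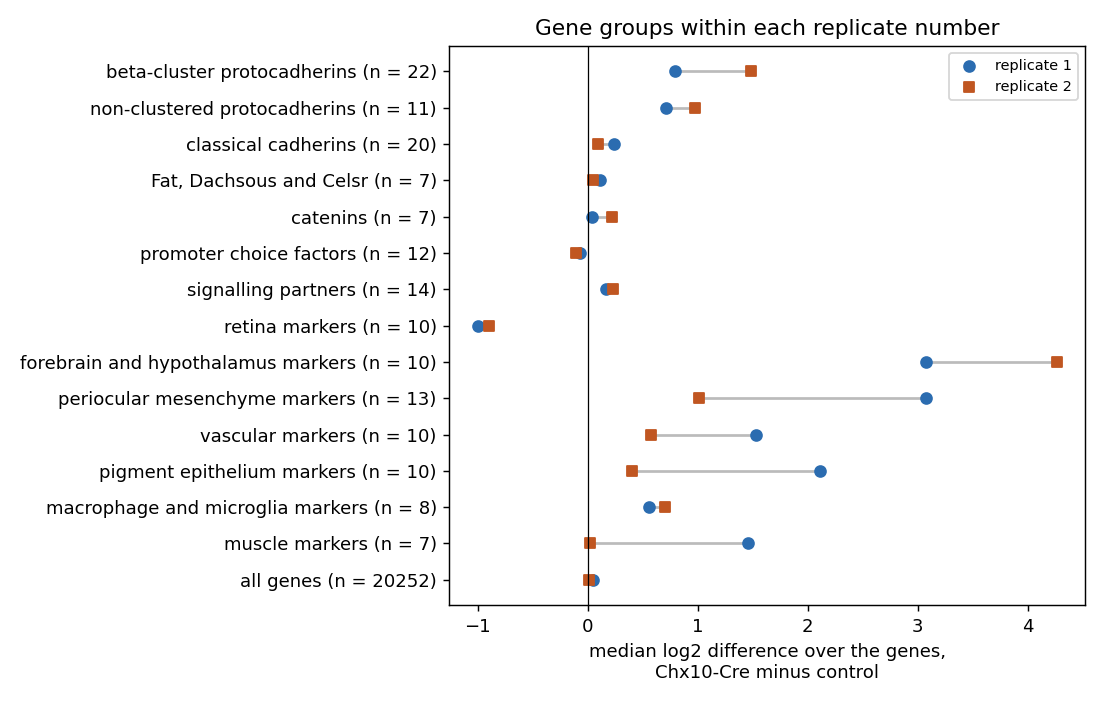
Median log2 difference, Chx10-Cre minus control, over the measured genes of each group, within the replicate 1 arrays (circles) and within the replicate 2 arrays (squares); n is the number of genes. Beta-cluster protocadherins lie at 0.79 and 1.48, non-clustered protocadherins at 0.71 and 0.97, and the other cadherin groups within 0.3 of 0.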

How the data were processed

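Total RNA was labelled with biotin by the whole-transcript sense assay after RiboMinus depletion of ribosomal RNA, per the labels' protocols, and hybridised to 4 arrays. The deposited values are log2 signals per transcript cluster; the submitters' processing notes name RMA, Partek and mm9, with no version or parameter. Array medians differed more between replicate numbers than between genotypes, so the median over all 112205 transcript clusters was subtracted from each array.

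Of the transcript clusters, 25513 had 1 symbol, 2290 had several and 84402 were unnamed here. Symbols came from the platform annotation. Genotypes and replicate numbers came from the sample titles. The test over all 20252 genes used limma 3.58.1 (R 4.3.3), with genotype as the only term, a variance prior that follows intensity, two-sided p and Benjamini-Hochberg adjustment; no dim gene was left out. The fit was tried on simulated data with known changes. In earlier work on these data limma on the deposited scale did not hold its error rate in simulation, which was a further reason for centring. The number of arrays limits the precision.

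The members, lists and centring were chosen with earlier results of these data known. Named genes are all non-clustered members, in each cluster the 2 of highest mean and of largest rise and fall, and from other lists the 2 of smallest p. The mesenchyme, vascular, pigment epithelium, macrophage and muscle lists are instead given by their sums and medians. Further genes are named with the reason or said to be chosen later. Alternatives covered the scale, quantile normalization, a replicate block, dim genes, the intensity trend, several transcript clusters, the threshold and each array left out.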

Additional observations from a re-analysis of the deposited data

Results flagged for a closer look

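One transcript cluster (6864753) listed with 2 gamma-cluster symbols was left out of the comparison because it names no single gene, and it gave a signal above that of the control arrays. Its levels were 0.65 and 0.46 on the control arrays and 1.05 and 1.45 on the Chx10-Cre arrays, a log2 difference of 0.70, or 0.41 within the replicate 1 and 0.99 within the replicate 2 arrays. The sign is opposite to that of Pcdhga10 (-0.38). Both control signals were dim, and the difference was not tested. As for Pcdhga10, the strand that this cluster reads was not checked.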

How the results depend on the processing

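The 34 protocadherin genes other than Pcdh7 kept the sign of their difference in every alternative that tested them. Pcdh7, at 0.02, became -0.0811 on the deposited scale, -0.0193 after quantile normalization, -0.16 with arrays centred on the median gene, and -0.19 to 0.22 with an array left out. Celsr2, at 0.61, ranged from -0.0029 to 1.22 with an array left out, the lowest without control replicate 2. The count of genes called was 0 as reported, and it was 415 on the deposited scale, 118 with arrays centred on the median gene (where the median over all genes was -0.14, against 0.03), 53 with dim genes left out, 17 at an adjusted p of 0.10, and 0 to 777 with an array left out (273 without Chx10-Cre replicate 1, 777 if replicate 2 is left out instead). The count of protocadherin genes called was 8 on the deposited scale and 0 to 7 with an array left out: 7 without Chx10-Cre replicate 1 and 6 if replicate 2 is left out instead. With a Chx10-Cre array left out, the lone array is assumed to vary like the 2 controls, which alone give each gene's residual spread. The cause of these shifts was not tested. The counts on the deposited scale come from a fit that did not hold its error rate in earlier simulations. The median of non-clustered genes was 1.28 with dim genes left out, where fewer genes were tested, and 0.71 to 0.91 with an array left out. That of clustered genes was 0.88 to 1.40. With a replicate block (replicate number as a term) the counts were 0 genes and 0 protocadherin genes, and the medians 1.16 and 0.81. Same-numbered arrays deviated together across genes (r = 0.479), but with 2 pairs and no label that ties the numbers to a litter or day, they are not taken as pairs.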
